A study of Rattus norvegicus with 6 samples.

Results

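The mitochondrial ribosomal protein genes of the rat were examined here as the rows of the deposited array table whose symbol begins with Mrpl or Mrps followed by a digit. The rule found 70 rows for 69 genes, out of 19634 gene symbols tested, and for Mrps36, the gene with a pair of rows, the row of higher mean was kept. By name 42 genes belong to the large subunit (Mrpl) and 27 to the small subunit (Mrps). No filter on low values was applied, so all 69 were tested.

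The samples were neuroepithelial progenitor cells, which later form the nervous system, sorted by flow cytometry from rat embryos at stage E10.5. For the 3 retinoic acid samples the dams were gavaged with 60 mg/kg of all-trans retinoic acid, dissolved in olive oil, and for the 3 control samples with oil only. Strain, sorting gate and time from dose to harvest were not stated in the labels. Each sample is a pool of biological replicates of unstated make-up, so that p-values here reflect differences among pools, which may in part be technical. A synthetic spike-in RNA mix was added to every sample, mix 1 in controls and mix 2 in retinoic acid samples, so that the mix cannot be told apart from the group.

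Mitochondria carry their own ribosomes, which make the few respiratory chain proteins encoded by mitochondrial DNA. The ribosomal RNAs come from mitochondrial DNA, whereas every protein of these ribosomes is encoded in the nucleus, made in the cytosol and imported. Some of the proteins have counterparts in bacterial ribosomes and others are found only in mitochondria. The large subunit joins amino acids and holds the exit tunnel, and the small subunit reads the messenger RNA.

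Retinoic acid samples held slightly more signal than controls for most of these genes. Of the 69 genes, 15 rose and none fell in limma at an adjusted p under 0.05, where 9.75% of all tested rows were called. The number with an unadjusted p under 0.05 in limma was 31, all of them higher. Of all 20258 tested rows 4465 had such a p, and 1120 of these were lower. By direction, 7.69% of all tested rows were called higher and 2.06% lower. The difference of log2 values, retinoic acid minus control, was above 0 in 59 of the 69 genes. Its median was 0.16, with quartiles of 0.06 and 0.22, while the median over all tested genes was 0.03, and 62.3% of those lay above 0. The largest rise, of Mrpl36, was 1.36-fold, and the lowest value, of Mrps28, was -0.14 and was not called. All 3 retinoic acid samples exceeded all 3 controls in 35 genes and lay below them in 2, against 19.0% and 6.95% of all tested rows.

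**Figure D1:**
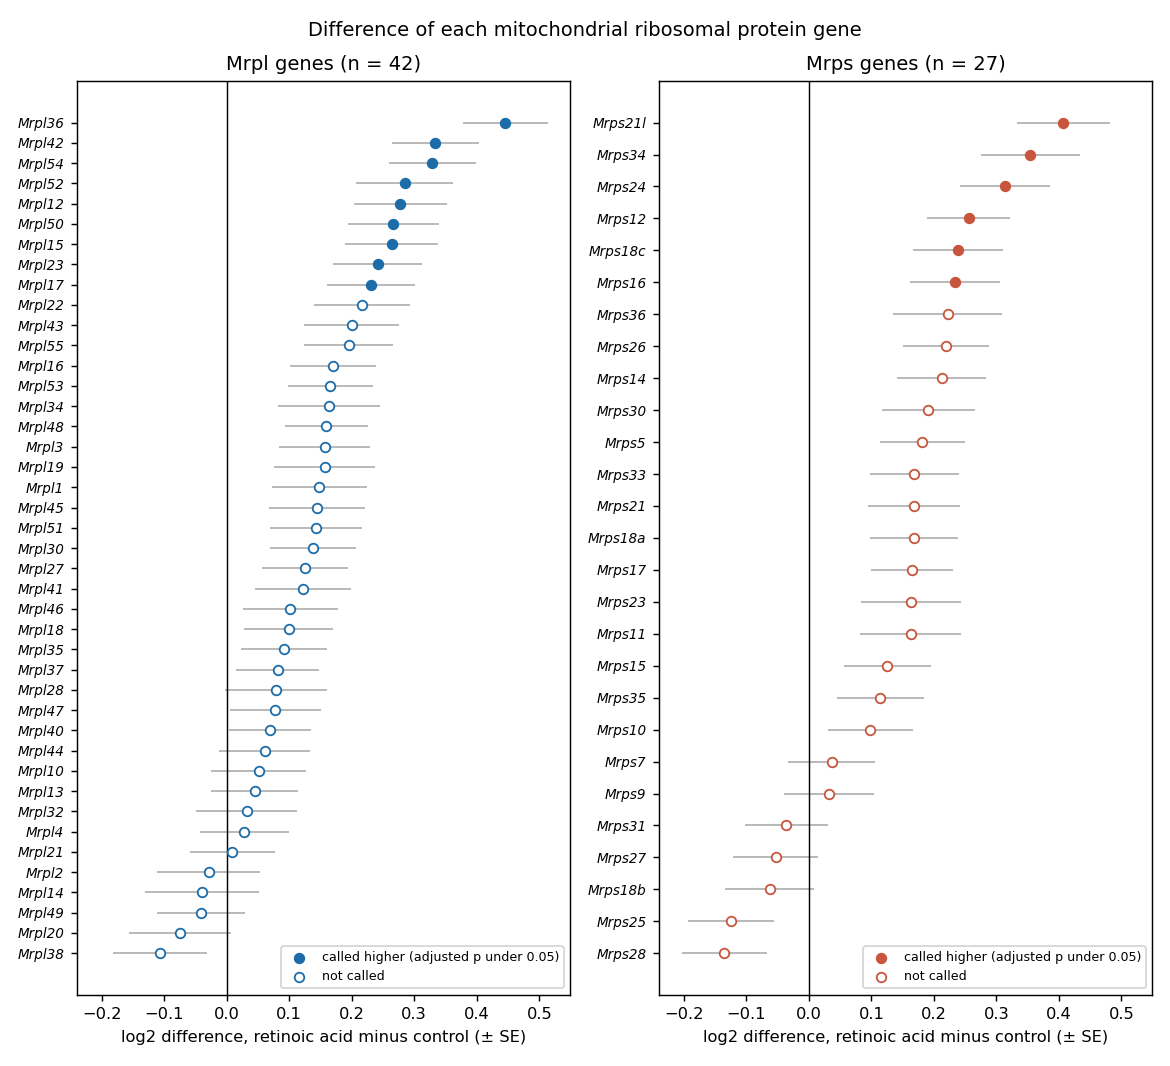
The log2 difference (horizontal axis, retinoic acid minus control, bars ± SE of the limma fit) is plotted for the 42 Mrpl genes on the left and the 27 Mrps genes on the right. Filled points, 9 on the left and 6 on the right, mark genes called higher, and 10 of the 69 points lie below 0.

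The samples differed in more than these genes. Over the tested rows the SD of log2 values was lowest in control 3 (1.54) and highest in retinoic acid 2 (1.67), and the sample medians lay between 6.73 and 6.79. Markers of neural progenitors were measured for 8 of 10 listed genes, of which Sox2, Pax6, Fabp7 and Zic1 rose. Msi1 (0.07), Nes (0.009), Dbx1 (-0.03) and Hes5 (-0.04) were not called. The mean log2 value of the 8 genes was 7.34 to 7.42 in controls and 7.56 to 7.64 in retinoic acid samples. Markers of other cell types were also measured in the sorted cells, without a background measure to show which were present. For 6 of 8 endothelial markers the mean log2 value was 8.59 to 8.71 in controls and 8.05 to 8.17 in retinoic acid samples. For 7 of 8 cardiac markers it was 6.63 to 6.68 and 7.45 to 7.57, for 5 of 8 erythroid markers 9.72 to 9.85 and 9.86 to 9.95, and for 9 of 10 mesoderm and mesenchyme markers 7.84 to 7.88 and 7.87 to 7.89. The mesoderm and mesenchyme markers went both ways, since Meox1 (0.93), Meox2 (0.50) and Tcf15 (0.30) rose and Col1a1 (-0.71), Msgn1 (-0.53) and Col3a1 (-0.37) fell. The median difference of the erythroid markers was 0.17 in the deposited values and turned to -0.03 after quantile and -0.04 after cyclic loess normalization. Among the erythroid markers Hbe2 (0.40) and Hbe1 (0.38) rose, while Hbz (0.17), Gata1 (-0.03) and Epor (-0.21) were not called. The globin gene Hbe1 had a mean of 13.77. In such bulk samples fewer cells of a type and less RNA per cell cannot be told apart, and the part of these cell types in the ribosomal protein differences was not tested.

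In the large subunit by name 9 of 42 genes rose and none fell, with a median difference of 0.14. Mrpl36 encodes the counterpart of bacterial L36, a short zinc-binding protein of the large subunit. Its row is labelled chromosome 17, from 41265 to 42361 on the minus strand. The coordinates are those of the deposited table, whose genome build the labels do not state. Unplaced sequence of a chromosome carries the same label here, and whether this row lies on it was not checked. The log2 values of Mrpl36 were 7.58, 7.60 and 7.67 in controls 1 to 3 and 8.11, 8.09 and 8.0 in retinoic acid 1 to 3. The groups lay clearly apart, and the difference was 0.45 ± 0.068 (SE, adjusted p = 0.00045). Mrpl42, a large subunit protein found only in mitochondria, had values of 6.11, 6.17 and 6.0 in controls and 6.42, 6.47 and 6.41 in retinoic acid samples. Its difference was 0.33 ± 0.069 (SE, adjusted p = 0.0049). Mrpl54, also without a bacterial counterpart, went from 11.08, 11.10 and 11.02 to 11.31, 11.49 and 11.39. It rose by 0.33 on the log2 scale (adjusted p = 0.0055), with retinoic acid 2 highest.

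The other rises of the large subunit were smaller and less even between samples. Mrpl12, the counterpart of the bacterial L12 stalk protein that recruits translation factors, had control values of 9.37, 9.33 and 9.42. Its retinoic acid values were 9.79, 9.56 and 9.60, so that retinoic acid 1 stood apart from the other 2 samples of its group. Mrpl52 was at 10.09, 10.03 and 10.06 in controls and at 10.21, 10.52 and 10.31 in retinoic acid samples, with retinoic acid 2 highest. For Mrpl50, another protein with no bacterial counterpart, the control values were 8.42, 8.24 and 8.28 and the retinoic acid values 8.62, 8.62 and 8.50. The nearest samples of the Mrpl50 groups were control 1 and retinoic acid 3. Mrpl15, Mrpl17 and Mrpl23 are counterparts of bacterial proteins, and Mrpl23 sits at the exit tunnel. Their differences were 0.26, 0.23 and 0.24, with adjusted p of 0.031, 0.045 and 0.039.

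**Figure D2:**
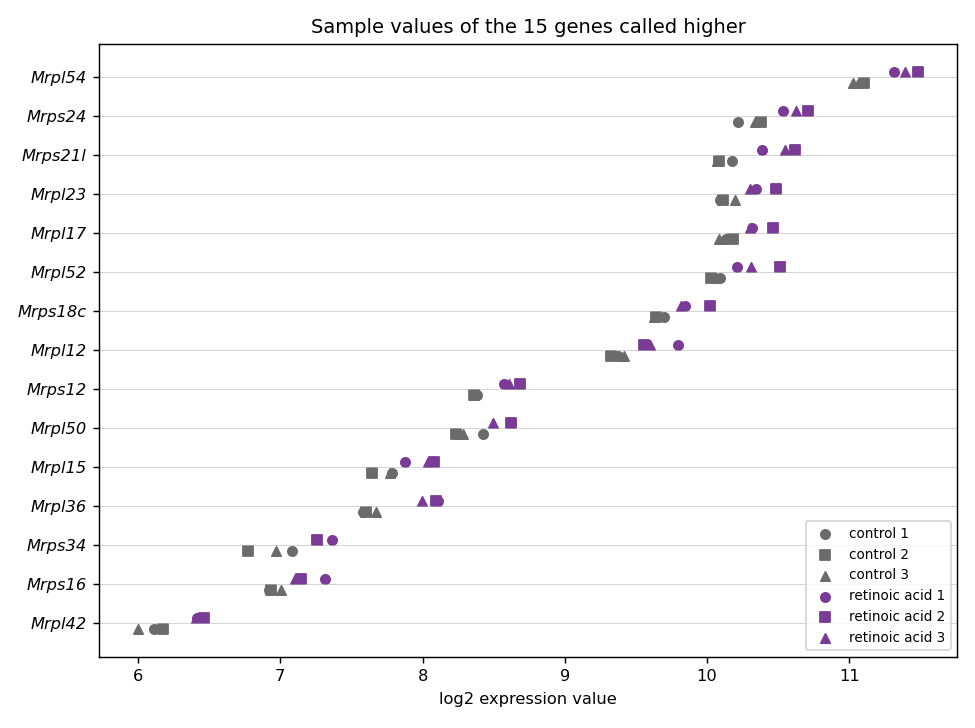
The log2 expression value (horizontal axis) of each sample is plotted for the 15 genes called higher, ordered by mean, with controls in grey and retinoic acid samples in purple. In every one of the 15 rows all 3 retinoic acid samples lie to the right of all 3 controls.

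In the small subunit by name 6 of 27 genes rose and none fell, with a median difference of 0.17. The row of Mrps21l, named as a gene like Mrps21, was at 10.17, 10.09 and 10.07 in controls and at 10.38, 10.62 and 10.55 in retinoic acid samples, a 1.33-fold rise (adjusted p = 0.0018). This row spans only 303 bases (chromosome 18, 76893022 to 76893324), and which copy its probes read is uncertain. Mrps21 itself, the counterpart of a bacterial small subunit protein, was at 0.17 and was not called (adjusted p = 0.19). Mrps34 encodes a small subunit protein found only in mitochondria, mutated in some humans with Leigh syndrome. Its row on chromosome 10, from 14144109 to 14145240, had values of 7.08, 6.77 and 6.97 in controls and 7.36, 7.26 and 7.26 in retinoic acid samples. The Mrps34 difference was 0.35 ± 0.079 (SE, adjusted p = 0.0081), with the wider spread among the controls.

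The other 4 rises of the small subunit were in genes with bacterial counterparts. Mrps24, the counterpart of bacterial S3, which lies where messenger RNA enters, went from 10.21, 10.38 and 10.34 to 10.54, 10.71 and 10.62. Mrps12, the counterpart of the S12 protein of the decoding centre, was at 8.38, 8.36 and 8.36 in controls and at 8.58, 8.69 and 8.61 in retinoic acid samples. The control values of Mrps12 were nearly equal, and its difference of 0.26 had an adjusted p of 0.020. Mrps16, a gene mutated in a human defect of mitochondrial translation, rose by 0.23 (adjusted p = 0.0498). Mrps18c rose by 0.24 (adjusted p = 0.043).

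Mrps18c belongs to a trio of related genes whose products have different places in the ribosome. The Mrps18c protein takes the place of bacterial S18 in the small subunit, Mrps18b is a second protein of the small subunit, and the Mrps18a protein is found in the large subunit in spite of its name. Mrps18c was at 9.70, 9.64 and 9.63 in controls and at 9.84, 10.02 and 9.82 in retinoic acid samples. Mrps18a was at 10.08, 10.06 and 10.01 in controls and at 10.12, 10.32 and 10.21 in retinoic acid samples, without overlap, but was not called (adjusted p = 0.17). Mrps18b was at 8.32, 8.48 and 8.37 in controls and at 8.29, 8.29 and 8.40 in retinoic acid samples, and these ranges overlapped. The related genes thus had differences of 0.24, 0.17 and -0.06, and the differences between them were not tested.

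The lowest values of the family were those of Mrps28 and Mrps25. Mrps28, a small subunit protein, was at 6.89, 7.0 and 6.96 in controls and at 6.83, 6.87 and 6.75 in retinoic acid samples. Mrps25, found only in mitochondria, was at 7.48, 7.54 and 7.44 in controls and at 7.27, 7.41 and 7.40 in retinoic acid samples. In these genes every retinoic acid sample lay below every control, yet neither was called (adjusted p = 0.27 and 0.32). The other 8 genes below 0 were Mrpl38 (-0.11), Mrpl20 (-0.07), Mrps18b, Mrps27 (-0.05), Mrpl49 (-0.04), Mrpl14 (-0.04), Mrps31 (-0.04) and Mrpl2 (-0.03). In each of these the groups overlapped. The remaining 44 genes lay between 0.01, for Mrpl21, and 0.22, for Mrps36, and were not called.

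Promoter windows give the sequence context of the called genes. RefSeq windows of the assembly GRCr8, from 250 bases before to 50 bases after each gene's start, were matched by gene identifier for 55 of the 69 genes. Motifs of factors linked to nuclear genes for mitochondria were searched on both strands: the 10-letter core of NRF1, the ETS family, to which GABPA belongs (CCGGAAG), YY1 (AANATGGCG) and the E-box read by Myc (CACGTG). The NRF1 letters were found in 14.5% of the 55 windows and in 4.71% of the 27457 windows of all genes, 1 a gene. The ETS letters were found in 32.7% against 9.22%, the YY1 letters in 21.8% against 3.33% and the E-box in 10.9% against 6.65%. The windows of all genes include genes not tested here. Their median share of the bases G and C was 52.33%, against 55.67% in the 55 windows. At least 1 of the 4 motifs stood in 31 of the 55 windows (56.4%) and in 20.3% of all windows. It stood in 8 of the 10 windows of called genes and in 23 of the 45 of genes not called, a difference that was not tested. A match is a description of the letters and not a site of binding.

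The windows below, 5′ to 3′ on the gene's strand, with motif matches in capitals, are those of the called gene of smallest p in each subunit that has a window, Mrpl36 and Mrps18c, and of Mrpl30 and Mrps18b, which with Mrpl36 hold the most matches, 3 each. Mrpl36 (chr1:31795072-31795371, minus strand) holds an ETS, an E-box and a YY1 match. This assembly places the gene on another chromosome than the label of its row, which may stand for unplaced sequence. Mrps18c (chr14:9122857-9123156, minus strand) holds an E-box beside an ETS match. Mrpl30 (chr9:47620977-47621276, plus strand) and Mrps18b (chr20:2842756-2843055, plus strand) hold an NRF1, an ETS and an E-box match each.
Mrpl36: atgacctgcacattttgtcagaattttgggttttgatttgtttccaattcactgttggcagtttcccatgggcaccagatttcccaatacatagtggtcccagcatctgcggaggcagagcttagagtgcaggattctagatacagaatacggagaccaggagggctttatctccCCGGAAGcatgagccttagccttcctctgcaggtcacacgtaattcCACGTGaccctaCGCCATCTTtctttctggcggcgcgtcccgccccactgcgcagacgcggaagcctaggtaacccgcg
Mrps18c: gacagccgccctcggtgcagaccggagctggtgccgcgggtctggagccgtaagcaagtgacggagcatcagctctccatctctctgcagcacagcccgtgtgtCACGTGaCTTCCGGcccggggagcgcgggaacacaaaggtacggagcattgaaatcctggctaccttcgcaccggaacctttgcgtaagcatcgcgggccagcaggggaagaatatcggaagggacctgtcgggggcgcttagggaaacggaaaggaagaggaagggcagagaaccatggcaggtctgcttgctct
Mrpl30: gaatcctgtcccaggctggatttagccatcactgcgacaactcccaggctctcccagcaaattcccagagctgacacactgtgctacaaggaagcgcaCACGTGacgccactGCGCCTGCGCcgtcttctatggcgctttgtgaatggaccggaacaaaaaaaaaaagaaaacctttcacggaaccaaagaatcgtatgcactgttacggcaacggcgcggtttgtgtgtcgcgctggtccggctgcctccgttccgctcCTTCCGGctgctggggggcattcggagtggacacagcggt
Mrps18b: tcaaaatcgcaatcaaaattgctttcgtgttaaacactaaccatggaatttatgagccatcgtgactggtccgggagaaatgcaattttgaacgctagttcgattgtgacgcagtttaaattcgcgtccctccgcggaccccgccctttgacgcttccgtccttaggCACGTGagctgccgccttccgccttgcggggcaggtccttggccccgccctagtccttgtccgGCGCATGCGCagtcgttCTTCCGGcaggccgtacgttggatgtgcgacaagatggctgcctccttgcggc

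Mrpl30 and Mrps18b share their kinds of match with each other but were not called, at 0.14 and -0.06, while Mrpl36 with as many matches had the largest rise. Several members start close to another gene on the opposite strand. In the coordinates of the table, 16 of the 69 genes (23.2%) had the start of another tested gene within 1000 bases, head to head, against 6.23% of all tested genes. Mrpl46 and Mrps11, a protein of each subunit, start 234 bases apart, with differences of 0.10 and 0.16, and neither was called. Mrps12 lies 194 bases from Sars2, the mitochondrial seryl-tRNA synthetase gene, which was at -0.09 and was not called. Mrpl43 lies 128 bases from Peo1, the gene of the mitochondrial DNA helicase Twinkle, with differences of 0.20 and -0.05. Of the 16 partners 1 was called, the proteasome gene Psma2, which rose by 0.35 (adjusted p = 0.0058) beside Mrpl32 at 0.03. The called genes Mrpl50 and Mrps18c face Zfp189 (0.09) and Helq (-0.03), which were not called.

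The large and the small subunit were compared as wholes. Relative to each gene's control mean, the mean of the 42 Mrpl genes was 0.11, 0.19 and 0.10 in retinoic acid 1 to 3, and that of the 27 Mrps genes 0.11, 0.19 and 0.12. The subunits thus moved by nearly equal amounts in every sample, with retinoic acid 2 highest in both. The mean difference of the large subunit minus that of the small was -0.0079, smaller than the SD of 0.018 between samples of a group. After quantile and after cyclic loess normalization it was -0.022. The SD of 0.018 is that of the deposited values and is not a measure of spread on those scales. The large minus small values of single samples still overlapped after quantile normalization, from -0.024 to 0.033 in controls and from -0.033 to -0.0061 in retinoic acid samples. With subunits taken by their place in the ribosome, in which Mrps30 and Mrps18a belong to the large subunit and Mrps36 and Mrps21l were left out, the value was 0.013. By place 9 of 44 genes of the large subunit and 5 of 23 of the small subunit rose, and none fell. Mrps30 was at 0.19 and was not called. Mrps36, whose current RefSeq symbol is Kgd4, a part of the alpha-ketoglutarate dehydrogenase complex and not of the ribosome, was at 0.22 and was not called either (adjusted p = 0.13). With its rows averaged it was at 0.27 and was called (adjusted p = 0.041).

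**Figure D3:**
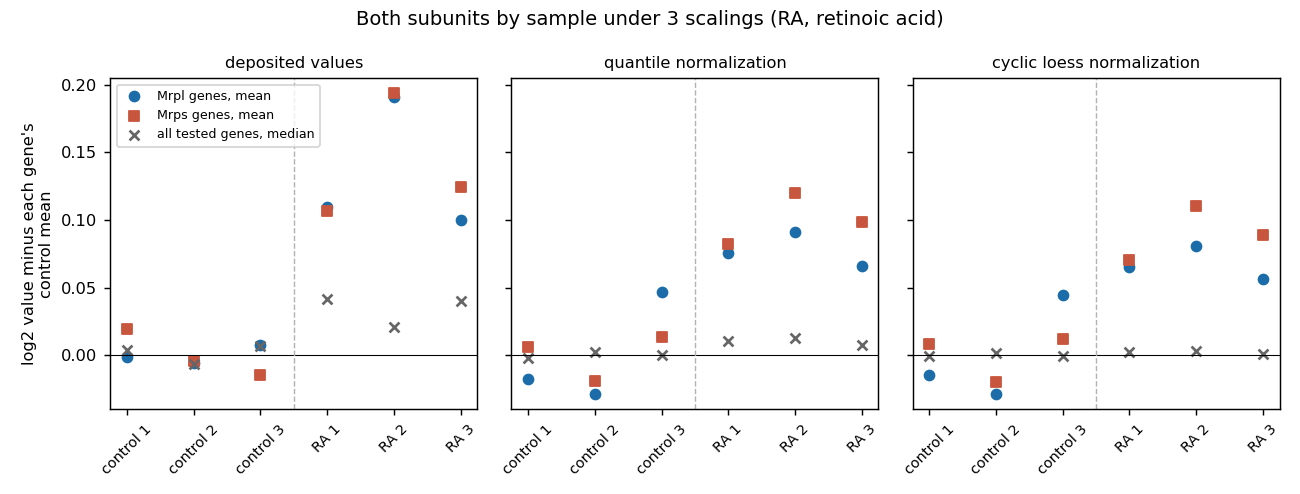
The mean of the Mrpl genes (circles) and of the Mrps genes (squares) and the median of all tested genes (crosses) are plotted by sample as log2 values minus each gene's control mean, for the deposited values and after quantile and cyclic loess normalization. Under all 3 scalings the retinoic acid samples lie above the controls for both subunits, and retinoic acid 2 moves from 0.19 to 0.09 for the Mrpl genes and to 0.12 for the Mrps genes after quantile normalization.

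Proteins with and without bacterial counterparts were also set side by side. Of 26 large subunit genes with a counterpart 5 rose (median 0.13), and of 18 without one 4 rose (median 0.15). After quantile normalization 2 rose in each, and the order of these medians turned, to 0.09 and 0.06. Of 14 small subunit genes with a counterpart 4 rose (median 0.17), and of 9 without one 1 rose, Mrps34 (median 0.11). After quantile normalization these counts were 2 and 1, with medians of 0.14 and 0.12. No gene of these groups fell. In the last group 4 of the 9 genes lay below 0, Mrps25, Mrps18b, Mrps27 and Mrps31. None of the differences between these groups was tested.

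Other genes whose rows gave similar signal were also above 0 for the most part. For each member the other genes within 0.25 log2 units of its mean value, 175 to 3181 genes, were taken as a reference. The median difference of these references rose with signal, from -0.0019 at the signal of the Mrpl42 row to 0.20 at that of the Mrpl54 row. On average 12.7% of the reference genes were called higher, against 21.7% of the members, and 66.4% lay above 0, against 85.5%. The member exceeded its reference median in 52 of 69 cases, and the median excess was 0.08. By subunit the excess was 0.07 for the large and 0.12 for the small. Mrpl36, Mrps34 and Mrpl42 exceeded their references by 0.42, 0.34 and 0.34, whereas Mrpl54, Mrpl23 and Mrpl17 did so by 0.13, 0.09 and 0.08.

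**Figure D4:**
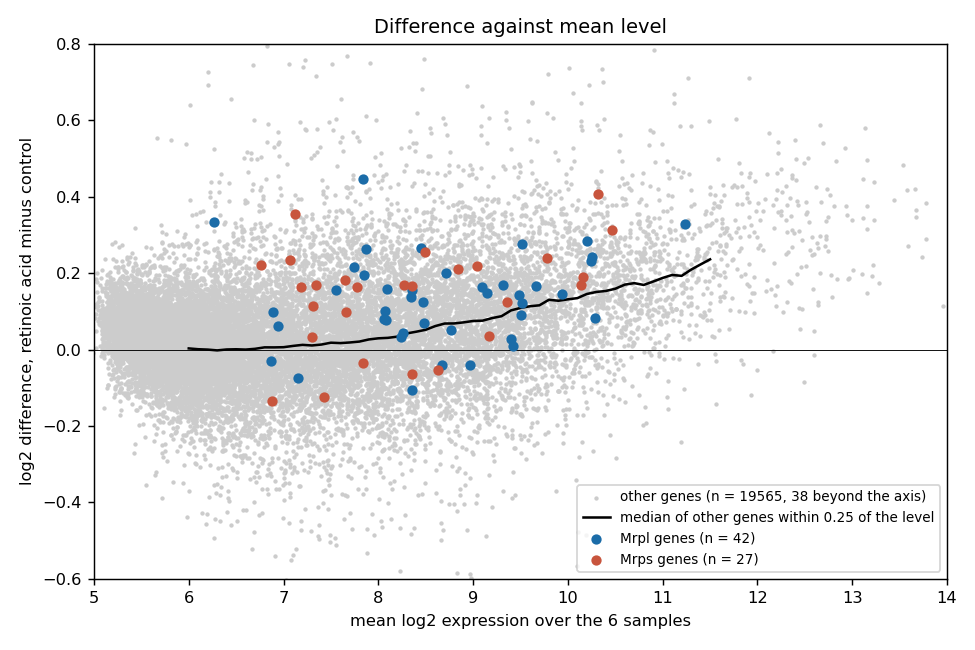
The log2 difference is plotted against the mean log2 value over the 6 samples for the Mrpl genes (blue), the Mrps genes (red) and 19565 other genes (grey), of which 38 lie beyond the vertical axis. The black line, the median of other genes within 0.25 log2 units, climbs with signal, and 52 of the 69 coloured points lie above their reference median.

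The rise was largest in number among the brightest rows, where the reference median of other genes was also highest. Of the 17 members with mean values from 9.42 to 11.23, 8 rose and all 17 lay above 0, with a median of 0.19 and a reference median of 0.14. Of the 18 members with mean values from 6.26 to 7.75, 3 rose and 14 lay above 0, with a median of 0.14 and a reference median of 0.01. The shares of reference genes called higher or above 0, on average 12.7% and 66.4%, were not taken apart by signal. Whether these counts exceed those of equally bright genes was thus not shown. After quantile normalization 8 of the 15 calls were kept and after cyclic loess 7, while 5.3% and 4.33% of all rows were then called higher and 3.21% and 3.5% lower. Over all rows that was 1073 higher and 651 lower after quantile normalization and 877 and 710 after cyclic loess, against 1558 and 417 in the deposited values. The 7 calls kept under both were those of Mrpl36, Mrps21l, Mrps34, Mrpl42, Mrpl15, Mrps12 and Mrps16. Those of Mrpl12, Mrpl17, Mrpl23, Mrpl52, Mrpl54, Mrps18c and Mrps24, all with mean values of 9.51 or more, were lost under both, and that of Mrpl50 after cyclic loess but not quantile normalization. Median centring of the samples gave 10 members called (5.9% of all rows higher, 1.85% lower), and array weights gave 14 (8.37% and 2.89%). The authors' deposited table called 10 members higher, where 5.05% of its rows were.

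Single samples weighed on the calls. Retinoic acid 2 was the highest sample of its group in 49 of the 69 genes, and it also had the widest spread of values over all rows. Without it 7 members were called, and the median difference was 0.11. Without control 1, control 2 or control 3 the members called were 6, 5 and 7. Without retinoic acid 1 or retinoic acid 3 they were 10 and 14. Calls over all tested rows also fell, from 1975 with every sample. They were 1350, 1351 and 1252 without control 1, control 2 or control 3, and 1589, 1371 and 1531 without retinoic acid 1, 2 or 3. Mrpl36, Mrps21l, Mrpl42 and Mrpl54 were called whichever sample was left out, with adjusted p of at most 0.0039, 0.012, 0.031 and 0.0285. Mrps34 was lost without control 2 (adjusted p = 0.053), and Mrps24 without control 1 (adjusted p = 0.063). Mrpl12 was lost without control 1, control 2 or retinoic acid 1. Mrpl52 and Mrps12 were lost without any single control or without retinoic acid 2, and Mrpl50 without control 2, control 3, retinoic acid 1 or retinoic acid 2. The calls of Mrpl15, Mrpl23, Mrps18c and Mrps16 were lost on leaving out any of 5 samples, and that of Mrpl17 on leaving out any of the 6. When samples were shifted by spike-ins of equal nominal amount in the mixes, no member was called in limma. Of all rows 0.197% were then called higher and 0.0346% lower. An unadjusted p under 0.05 was found in 5 members, and its share over all rows was not counted after this shift. The shifts themselves ran from -0.22 to 0.29 in controls and from -0.03 to 0.11 in retinoic acid samples. The members' median difference after the spike-in shift was 0.19, and the difference of Mrpl36 was 0.48.

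Some mitochondrial ribosomal proteins go by other names and fall outside the naming rule. Of 7 such genes 1 rose, Chchd1, a small subunit protein found only in mitochondria. It was at 9.39, 9.29 and 9.32 in controls and at 9.67, 9.86 and 9.72 in retinoic acid samples, a difference of 0.41 ± 0.0715 (SE, adjusted p = 0.0012). Ptcd3 and Ict1 (now Mrpl58), at 0.17 and 0.16, Mrp63 (now Mrpl57), at 0.11, and Gadd45gip1, Aurkaip1 and Dap3, from -0.02 to 0.06, were not called. A row with no family symbol in the table, LOC100360017, is now named Mrps6 and was at 0.0076. Another such row, RGD1560917, is now named Mrpl41l1 and was at 0.01, and neither was called.

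The genes that build and serve the mitochondrial ribosome were called in shares from 4.35% to 12.5% by list, beside 7.69% of all tested rows called higher. Of 23 assembly and RNA modification factors 1 rose, Noa1, a GTPase of small subunit assembly (0.33, adjusted p = 0.011), and the list median of 0.0063 turned to -0.00061 with median centring. Of 13 translation factors 1 rose, Guf1, an elongation factor (0.24, adjusted p = 0.037), and the median of 0.05 fell below 0 after quantile or cyclic loess normalization. Of 16 mitochondrial aminoacyl-tRNA synthetases 1 rose, Mars2 (0.34, adjusted p = 0.0047), a call lost after cyclic loess, with a median of -0.0041. None of these lists had a called fall, although 3 synthetases were lower at an unadjusted p under 0.05. Of all 20258 tested rows 1120 were lower at that p. Of 16 factors of mitochondrial DNA and RNA upkeep 2 rose, the DNA-binding proteins Ssbp1 (0.28, adjusted p = 0.024) and Tfam (0.24, adjusted p = 0.047), the latter also the main packaging protein of mitochondrial DNA. Guf1, Ssbp1 and Tfam were not called after quantile or cyclic loess normalization. The call of Tfam was lost on leaving out any single sample, that of Guf1 on leaving out any but retinoic acid 3, and that of Ssbp1 without control 1, control 3, retinoic acid 2 or retinoic acid 3. The call of Noa1 was lost without control 3 or without retinoic acid 2.

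Among 12 nuclear regulators of mitochondrial biogenesis, Yy1 and Myc rose (16.7%, beside 7.69% of all tested rows called higher). The list median was 0.08, or 0.02 after quantile and 0.01 after cyclic loess normalization. Yy1 encodes a zinc finger factor, and its difference was 0.50 ± 0.067 (SE, adjusted p = 0.00015). Myc, a growth-promoting factor that binds the E-box, was at 0.36 ± 0.071 (SE, adjusted p = 0.0032). Nrf1 was at 0.05 and Gabpa at 0.11, and neither was called. The coactivator Ppargc1a (0.17) was not called.

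**Figure D5:**
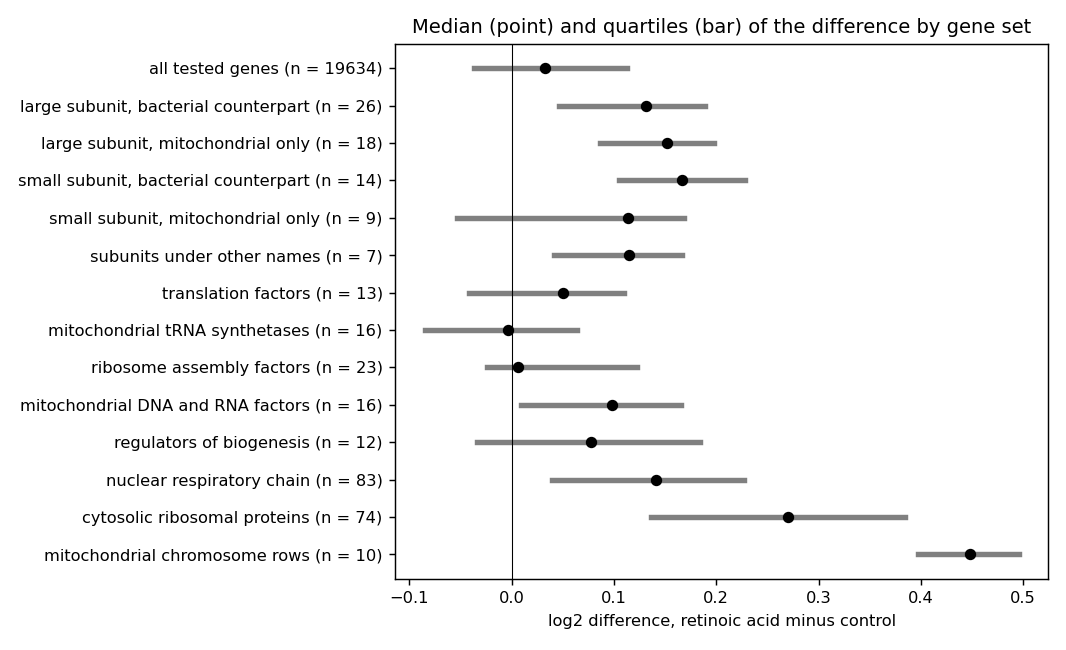
The median (point) and the quartiles (bar) of the log2 difference, retinoic acid minus control, are plotted for all tested genes and for 13 gene sets. The 4 groups of mitochondrial ribosomal proteins named Mrpl or Mrps have medians between 0.11 and 0.17, against 0.03 for all tested genes, and the synthetases and assembly factors have medians near 0.

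The respiratory chain, which holds the products of mitochondrial translation, and the cytosolic ribosomal proteins also had medians above 0. Of 83 nuclear respiratory chain genes 20 rose and none fell, with a median of 0.14. After quantile normalization 8 rose and none fell (median 0.06), and after cyclic loess 6 rose and 1 fell (median 0.04). Of 74 cytosolic ribosomal protein genes 45 rose and 1 fell, with a median of 0.27. After quantile normalization 22 rose (median 0.12), and after cyclic loess 9 rose and 1 fell (median 0.06). Of the 10 named rows on the mitochondrial chromosome, whose messages these ribosomes translate, 9 rose, with a median of 0.45. After quantile normalization 4 rose (median 0.18), and after cyclic loess 1 rose (median 0.13). The median of the mitochondrial ribosomal proteins was 0.16, or 0.09 after quantile normalization. These sets differed in signal. The median of the mean log2 values was 9.2 for the respiratory chain genes, 11.5 for the cytosolic ribosomal proteins and 13.1 for the mitochondrial chromosome rows. For the members it was 8.4. Since the differences of other genes also rose with signal, the sets are not on equal terms, and no reference of equal signal was taken for them. Of all tested rows 7.69% were called higher, 5.3% after quantile normalization and 4.33% after cyclic loess. Differences between these sets were not tested.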

How the data were processed

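The authors deposited 1 table of 29656 rows whose 6 sample columns are normalized log2 values. The log2 scale was read from their range (4.77 to 14.35) and from the deposited log2 fold change. Array design, summarisation, normalization and genome build were not stated in the labels. The t and B scores and the p-values in the authors' deposited table come from limma, per the submitters' processing notes, without a version. The control columns, prefixed WT, were matched to the control samples by number.

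Array controls (167 rows) and 9231 rows without a name were left out, and 20258 rows were tested with limma 3.58.1 (R 4.3.3), by lmFit and then eBayes (no block, two-sided, Benjamini-Hochberg over all of them, called at 0.05). In the authors' deposited table, adjusted over all rows, 10 members are higher at that threshold. The fit was tested on simulated data. A gene not called, at 3 samples a group, is not shown to be unchanged. Entrez identifiers gave current symbols for 19068 rows, all 70 member rows among them (RefSeq, GRCr8). For reference genes and gene counts 1 row per symbol was taken, that of highest mean. Subunit classes and gene lists came from general knowledge, as did the spike-in subgroups. The members and lists were chosen with earlier results of these data known.

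Genes named are all called members, the 3 brightest and 3 faintest, those whose names differ from their place, and up to 4 called genes of each list by smallest p (or 2 uncalled ones). Other genes named were chosen after their values were seen. No proteins are shown. Alternatives were a replicate block, quantile and cyclic loess normalization, median centring, a spike-in shift, trend and robust moderation, rows above the median level, array weights, averaged rows, a wider signal window, subunits by place, and leaving out each sample. Excess over reference genes after both normalizations, and the count without Mrps21l and Mrps36, were added after seeing the data. Same-numbered samples did not deviate together in all pairs (correlations -0.11, 0.235 and 0.235), so numbers were not treated as pairs. Arrays carry no read depth, and their number limits the precision. Figures used matplotlib 3.10.9, pandas 2.3.3 and Python 3.11.15.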

Additional observations from a re-analysis of the deposited data

Results flagged for a closer look

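A second row of Mrps36, tested with all rows but not kept as the row of the gene, rose by 0.32 on the log2 scale (adjusted p = 0.016 in limma). It lies on chromosome 2, from 31530724 to 31538504, and its values were 6.34, 6.10 and 6.08 in controls and 6.42, 6.58 and 6.47 in retinoic acid samples. The kept row, on chromosome 9, spans 899 bases and was at 0.22 (adjusted p = 0.13). It is listed because this row, not used for the members' values, had a signal above the controls. With both rows averaged the gene was at 0.27 and was called (adjusted p = 0.041). Which of the rows reads the Mrps36 transcript was not tested.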

How the results depend on the processing

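The members called numbered 15, and 14 without Mrps21l and Mrps36. They were 8 after quantile normalization, 7 after cyclic loess, 0 after the spike-in shift, and 5 to 14 when single samples were left out. All rows called numbered 1975, 47 after the spike-in shift, and 1252 to 1589 without single samples. The members' median difference of 0.16 was 0.0919 after quantile normalization, 0.0788 after cyclic loess and 0.115 to 0.167 without single samples. The median stayed above 0 under every setting run. The excess over reference genes was 0.08 with the narrow and the wide window and after both normalizations. The difference between the subunits ran from -0.018 to 0.0033 without single samples, was -0.022 after either normalization and 0.013 by place. The replicate block left the median at 0.16 and gave 16 calls among members and 2416 among all rows. Not every sample correlated best with its own number, since retinoic acid 1 deviated most alike with control 3. Mrpl2, not called, turned from -0.03 to 0.0076 after the spike-in shift and ran from -0.0967 to 0.049 without single samples (0.0077 without control 1, 0.049 without retinoic acid 2). The cause of these changes was not tested. A faint row near background has a compressed difference on arrays, and no background measure was used here.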

Other observations

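Among the 69 members the log2 difference was lower for rows that span more bases of the genome (Pearson r = -0.41 with the log10 span, Spearman rho = -0.37, across genes of the same 6 arrays, which are not independent). Over all 19634 tested genes the same values were -0.065 and -0.067. Mrps21l (303 bases), Mrpl36 (1097 bases) and Mrps34 (1132 bases), the members with the largest rises, have short rows, whereas Mrps27 (68046 bases) and Mrps28 (38434 bases) have long ones. There were exceptions both ways, since Mrpl42, with the next largest rise (0.33), has a row of 23744 bases, and the short rows of Mrpl34 (736 bases, 0.16) and Mrpl41 (918 bases, 0.12) were not called.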
